A study of Mus musculus with 6 samples.

Results

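The 9 genes described here mark the oligodendrocyte lineage: the transcription factors Olig1, Olig2, Sox10 and Nkx2-2, the precursor surface proteins Pdgfra and Cspg4, the receptor Gpr17 of committed precursors, and the myelin genes Cnp and Mbp. They were chosen by name and not by a rule on their values, though earlier results of these data were known. They were found on the arrays by matching the RefSeq transcript of each probe to a gene symbol. This gave 12 of 55681 probes and 9 of the 21368 genes that could be named. Expression was measured in dividing precursor cells of the dentate gyrus, taken from C57BL6/JRj mice (males, age 8 weeks) and kept as an adherent layer. Every culture, saline and LDL alike, received the mitogens EGF and bFGF at 20 ng/ml each. The 3 saline cultures were the controls, and the 3 LDL cultures received human low-density lipoprotein, the main cholesterol carrier of blood, for 48 h. The dose was 100 ug/ml in the treatment protocol, while the sample descriptions write another unit of volume. The labels describe independent experiments on different passages, and say nothing of how many mice gave each culture. Each culture was hybridized to a 1-colour array, so the number of arrays limits the precision. On an array 55.9% to 66.9% of all probes were well above background.

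Oligodendrocytes make the myelin of the brain. They arise from precursors in which OLIG2, with its close relative OLIG1, sets up the lineage and SOX10 and NKX2-2 carry it towards differentiation. PDGF-A acting through its receptor PDGFRA keeps the precursors dividing, and the proteoglycan CSPG4 (NG2) marks the same stage. GPR17 appears as precursors commit and is lost again as myelin proteins such as CNP and MBP accumulate. In cultures of adult hippocampal precursors Olig2 is commonly expressed while EGF and FGF keep the cells dividing. Myelin is rich in cholesterol, which oligodendrocytes make largely themselves. The comparison of LDL with saline asks here whether transcripts of this lineage differ when lipoprotein cholesterol is supplied.

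Promoter sequence was available for 5 of the 9 genes, from RefSeq on GRCm38.p6. OLIG1 and OLIG2 belong to the basic helix-loop-helix factors, which bind E-boxes, so the 250 bases before the start of the 3 genes whose window holds an E-box (CANNTG, searched on both strands) are shown with these letters in capitals. The Nkx2-2 window lies at chr2:147186403-147186652 on the minus strand, that of Pdgfra at chr5:75152001-75152250 and that of Cnp at chr11:100574689-100574938, both on the plus strand.
Nkx2-2: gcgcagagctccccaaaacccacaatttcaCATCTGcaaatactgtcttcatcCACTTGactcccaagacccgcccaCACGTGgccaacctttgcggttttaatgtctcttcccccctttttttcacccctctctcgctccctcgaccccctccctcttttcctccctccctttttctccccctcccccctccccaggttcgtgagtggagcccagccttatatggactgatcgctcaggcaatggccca
Pdgfra: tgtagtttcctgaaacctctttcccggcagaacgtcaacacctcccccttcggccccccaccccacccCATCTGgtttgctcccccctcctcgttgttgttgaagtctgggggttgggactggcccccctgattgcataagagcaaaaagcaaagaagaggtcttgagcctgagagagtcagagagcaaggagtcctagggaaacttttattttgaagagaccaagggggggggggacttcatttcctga
Cnp: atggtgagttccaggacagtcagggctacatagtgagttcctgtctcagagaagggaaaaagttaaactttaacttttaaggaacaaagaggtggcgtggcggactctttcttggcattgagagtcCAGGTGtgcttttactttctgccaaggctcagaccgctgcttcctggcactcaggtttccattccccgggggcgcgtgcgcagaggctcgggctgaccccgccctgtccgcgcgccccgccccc
The Nkx2-2 window has 3 E-boxes, and those of Pdgfra and Cnp have 1 each, while the windows of Olig2 and Cspg4 have 0. An E-box of this form stood in 66.2% of 32851 RefSeq promoter windows of the same length, so it is common. The motif TCACNCCAC of the sterol regulatory element, which SREBP factors bind, stood in 1.05% of the windows and in 0 of the 5. A match describes letters only, and its absence says nothing of binding.

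Of the 9 genes, 8 had a probe well above background on all 6 arrays and Gpr17 had none. Olig1 had processed signals between 40774.8 and 70885.9, which is 1473.2 to 5098.7 times the lowest signal that was well above background on the same array. Olig2 lay 584.2 to 1707.1 times above that limit. Both therefore sat far from background in every culture, and neither was saturated. The limit applies to an array as a whole, and the distances do not rank genes by transcript number, because probes differ in brightness.

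Cnp lay 66.0 to 174.8 times above the limit, Sox10 10.75 to 42.49 times, Nkx2-2 11.19 to 24.68 times and Cspg4 7.87 to 24.1 times. Mbp and Pdgfra were close to it. The brightest of 3 Mbp probes had processed signals between 57.0 and 160.4, or 3.13 to 8.70 times the limit. The other probes did not clear background on any array, although 1 of them reached 1.21 and 1.41 times the limit on LDL arrays 2 and 3. Pdgfra lay between 1.38 times the limit on LDL array 1 and 8.13 times on LDL array 3. Of the 2 Nkx2-2 probes, the dimmer cleared background on 0 arrays. Gpr17 had processed signals between 4.01 and 7.48, which is 0.22 to 0.34 of the limit. Its transcript was thus not measured in either group, and no fold change is given.

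**Figure D1:**
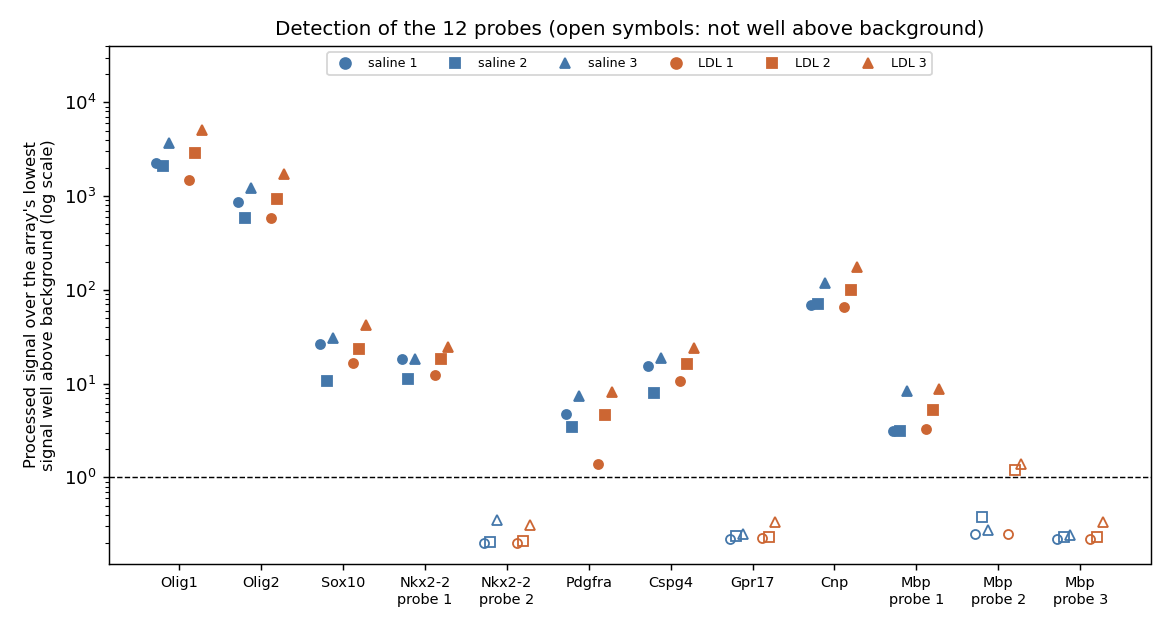
Processed signal of each of the 12 probes divided by the lowest signal well above background on the same array (log scale), with 1 symbol per array and open symbols where the probe was not well above background. Olig1 and Olig2 lie far above the dashed limit of 1 on all 6 arrays, Pdgfra and the first Mbp probe lie close to it, and Gpr17 lies below it on all 6.

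After LDL, 0 of the 8 measured genes differed from saline by the limma test over all 24225 features, where 0.120% of features passed an adjusted p of 0.05 (0.0124% as higher and 0.107% as lower after LDL). None had an unadjusted p below 0.05, against 7.46% of all features, and none had groups that did not overlap, against 14.6%. Of the 8 log2 fold changes 4 were negative and 4 positive, with a median of -0.01 beside -0.03 over all features. In size 7 of the 8 lay between 0.04 and 0.15, and Pdgfra was the exception at 0.66. Levels below are log2 signals minus the log2 of the array's 75th percentile, in the order of replicates 1, 2 and 3, and fold changes are LDL minus saline. An exact permutation test of 3 arrays against 3 cannot go below p = 0.1, and for these genes it gave between 0.2 and 1.

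The founding factors of the lineage were alike in both groups within their spread. Olig1, a helix-loop-helix factor needed for precursor maturation and myelin repair, had 5.74, 6.47 and 6.23 with saline and 5.68, 6.11 and 6.20 with LDL. Replicate 1 was lowest in each group, and the groups overlapped. The log2 fold change was -0.15 (SE 0.22, 95% interval -0.67 to 0.37, limma adjusted p = 0.922), and it became 0.0074 without LDL replicate 1 and 0.012 without saline replicate 2. Olig2, the factor that specifies the lineage, had 4.38, 4.63 and 4.63 with saline and 4.35, 4.49 and 4.62 with LDL. Its fold change was -0.06 (SE 0.12, 95% interval -0.35 to 0.23, limma adjusted p = 0.949), and 0.0086 without LDL replicate 1. Replicate 1 was again lowest in both groups. Olig1 and Olig2 are neighbours on chromosome 16, with 0 protein-coding genes annotated between them.

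Sox10, which drives myelin genes in oligodendrocytes, had -0.67, -1.14 and -0.69 with saline and -0.78, -0.84 and -0.71 with LDL. Saline array 2 stood below the other 5, and the fold change of 0.06 (SE 0.15, 95% interval -0.29 to 0.41, limma adjusted p = 0.957) became -0.09 without it. Nkx2-2, a homeodomain factor that promotes the onset of differentiation, had -1.18, -1.09 and -1.42 with saline and -1.22, -1.17 and -1.49 with LDL. Its lowest array in each group was replicate 3, the pair on slide row 2. The fold change was -0.06 (SE 0.14, 95% interval -0.39 to 0.26, limma adjusted p = 0.953), with 0.036 without LDL replicate 3 and 0.0083 without saline replicate 2.

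Pdgfra, the receptor for PDGF-A on dividing precursors, had the largest difference of the 8. Its values were -3.14, -2.79 and -2.76 with saline and -4.38, -3.18 and -3.10 with LDL. Each LDL array lay below the saline array of the same number, with differences of -1.24, -0.40 and -0.33. Of the other measured genes, Olig1, Olig2 and Nkx2-2 had this order too, and the rest did not. The share of all features with this order was not computed, so the order is not read as a result. For Pdgfra, LDL array 3 lay above saline array 1, so the groups overlapped. The log2 fold change was -0.66 (SE 0.34, 95% interval -1.47 to 0.15), a 1.58-fold difference that did not pass (unadjusted p = 0.0966, limma adjusted p = 0.748). LDL array 1 carried much of it, since the fold change was -0.24 without that array and between -0.89 and -0.59 with any other array left out. On LDL array 1 the limit, the lowest signal well above background, was the highest of the 6, at 33.4 against 13.9 to 30.8. There 90% of the Pdgfra spots were flagged as well above background, a call made for each spot and not by this limit. The part of this limit in the result was not tested. The probe was printed in 10 spots, whose log2 SD was 0.24 on LDL array 1 and 0.09 to 0.17 on the others, all below the SD of 0.72 between the LDL arrays. On saline array 1, 1 of the 10 spots carried an outlier flag and was left out. With normexp and quantile normalization the difference was -0.32, and with the authors' deposited values it was -0.44.

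Cspg4, the NG2 proteoglycan, had -1.44, -1.59 and -1.41 with saline and -1.43, -1.38 and -1.52 with LDL. It was among the least variable of the 8, with an SD of 0.10 with saline and 0.07 with LDL. The fold change was 0.04 (SE 0.10, 95% interval -0.20 to 0.28, limma adjusted p = 0.961) and -0.019 without saline replicate 2.

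The myelin genes spread more widely over the saline arrays than over the LDL arrays. Cnp, a phosphodiesterase of non-compact myelin already present in precursors, had 0.72, 1.58 and 1.24 with saline and 1.20, 1.27 and 1.33 with LDL. All LDL values lay inside the saline range. Its fold change was 0.09 (SE 0.21, 95% interval -0.41 to 0.59, limma adjusted p = 0.956), and -0.14 without saline replicate 1. Mbp, the protein that compacts the myelin sheath, had -3.74, -2.92 and -2.56 with saline and -3.13, -2.99 and -3.00 with LDL, again inside the saline range. The fold change was 0.04 (SE 0.28, 95% interval -0.63 to 0.70, limma adjusted p = 0.988), and -0.30 without saline replicate 1.

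**Figure D2:**
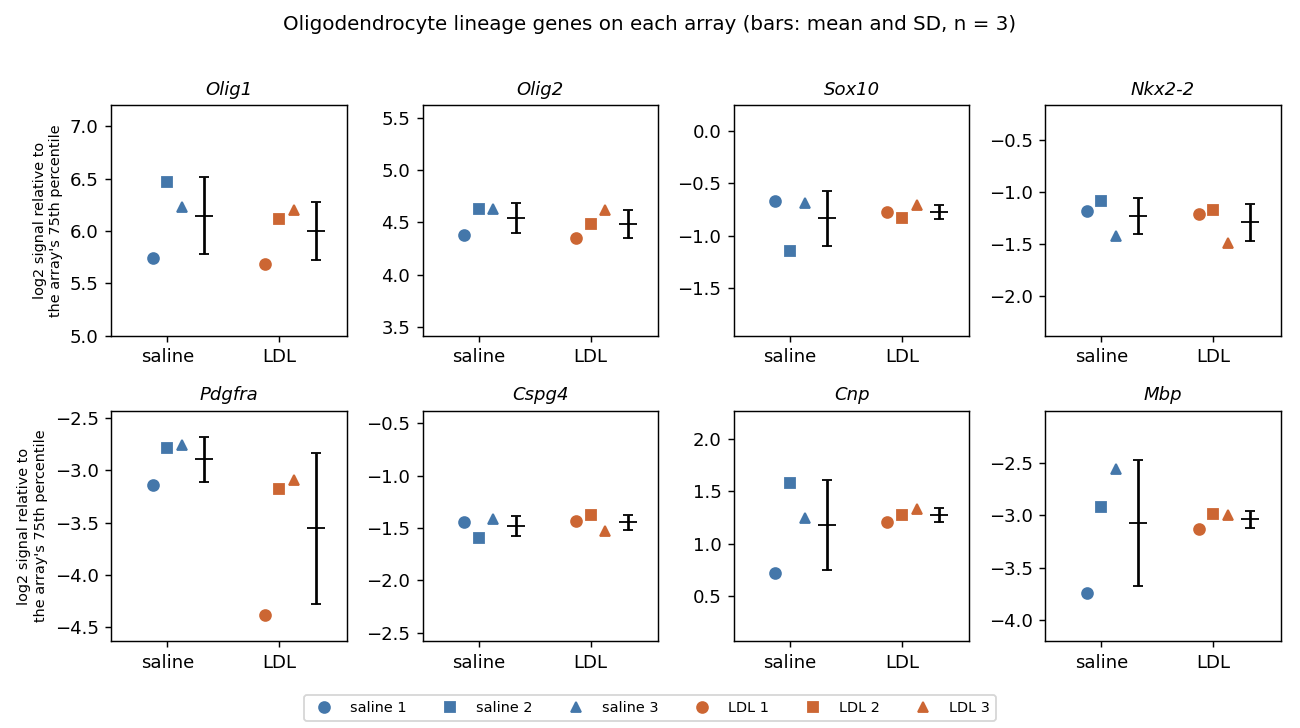
Log2 signal of the 8 measured genes relative to the array's 75th percentile, with 1 symbol per array (circles, squares and triangles for replicates 1, 2 and 3) and the mean with SD beside each group of 3. Every vertical axis spans the same range, the groups overlap in all 8 panels, and the wide bars are those of Cnp and Mbp with saline and Pdgfra with LDL.

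The SD between saline arrays was 7.35 times that between LDL arrays for Mbp, 6.58 times for Cnp and 4.16 times for Sox10. These ratios leaned on single arrays, as a look added after the values were seen showed. For Sox10 the order turned without saline replicate 2, with an SD of 0.012 against 0.064 with LDL. Without saline replicate 1 the ratio was 3.095 for Mbp and 3.65 for Cnp. With all arrays, the saline SD was the larger for 6 of the 8 genes, which is near the 75.7% of all features, with medians over all features of 0.19 with saline and 0.10 with LDL. For Pdgfra the order was the other way, 0.21 against 0.72, and it turned without LDL replicate 1, where the LDL SD was 0.061.

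Replicate number 1 was the lowest of the 3 arrays in both groups for Olig1, Olig2, Pdgfra, Cnp and Mbp, and the highest in both for 0 of the 8. Over all features replicate 1 was lowest in both groups for 14.1% and highest in both for 21.9%. This order was noticed after the values were seen and gets no test. By likeness over the 6 arrays to the mean standardized profile of the 8 genes, the nearest of the other named genes were Dbf4 (r = 0.995), Nt5e (0.992), Dcbld1 (0.988), Cdc7 (0.986) and Sfrp1 (0.979). Among the 8 themselves r with this profile ran from 0.88 for Olig1 and Olig2 down to -0.32 for Sox10, so they did not form a single pattern. These correlations rest on 6 arrays, were chosen as the highest of many, and carry no test.

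**Figure D3:**
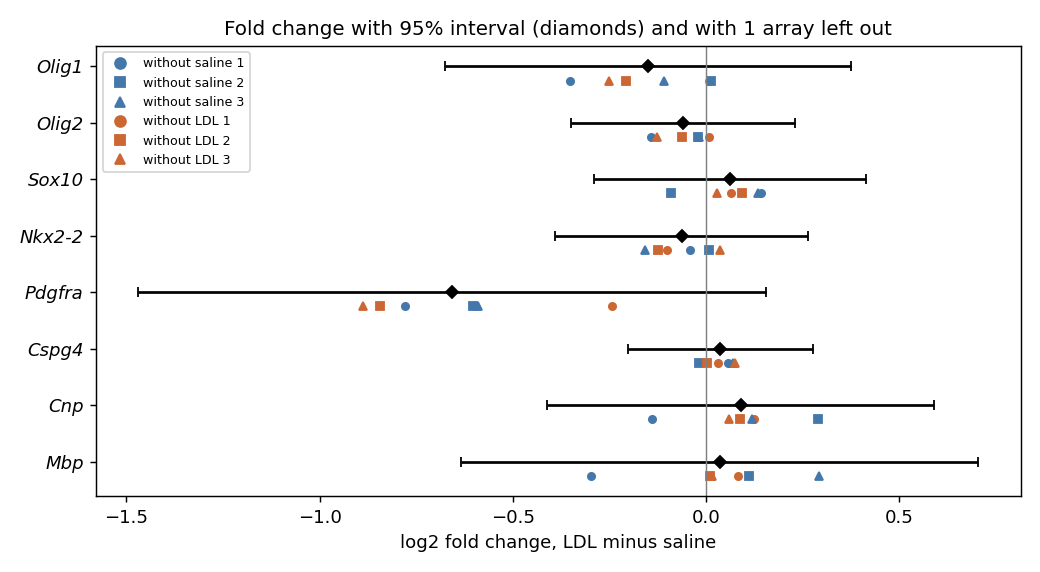
Log2 fold change of LDL minus saline for the 8 measured genes (diamonds) with 95% intervals from limma, and below each the value with 1 of the 6 arrays left out. All 8 intervals include 0, and Pdgfra moves from -0.66 to -0.24 when LDL array 1 is left out.

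The wider programme was described through 100 other oligodendrocyte genes in 5 lists, of which 79 were measured and 15 were well above background on no array. None of the 79 passed over all features in limma, and 13 had an unadjusted p below 0.05 (16.5%, against 7.46% of all features). Negative fold changes were in the majority, with 61 of 79 genes (77.2%) against 56.2% of all features and a median of -0.11. With each array scaled to its median 52 were negative, and without saline replicate 1 it was 51. The share of 56.2% belongs to the main fit and is not given for these settings. Median scaling also moved the median over all features, from -0.026 to 0.013. Groups did not overlap for 13 genes that were lower and 3 that were higher after LDL, beside 8.77% and 5.82% of all features.

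Among other transcription factors of the lineage, 0 of 15 measured genes passed and the median was -0.20. Sox8, a relative of Sox10, had -0.61 (limma adjusted p = 0.536), and the chromatin remodeller Chd7 had -0.26 (limma adjusted p = 0.709). Over the 15 genes the groups did not overlap for 3, Sox8 among them, all lower after LDL. Myrf, the factor that switches on myelin genes, and Nkx6-2 were well above background on no array, names chosen after their values were seen.

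Of 20 other precursor genes measured 0 passed, with a median of -0.11. The smallest p belonged to the growth factor Pdgfc at -0.49 (limma adjusted p = 0.472), the guidance molecule Sema5a at -0.37 and the proteoglycan Ncan at -0.355. All 3, picked for their small p, had groups that did not overlap, with lower values after LDL. Over the 20 genes the groups did not overlap for 4 lower and 0 higher, beside 8.77% and 5.82% of all features. Pdgfa, the ligand of PDGFRA, had 0.26 (limma adjusted p = 0.793) and was named for its role. Genes of committed precursors had a median of -0.11 over 11, and 0 passed. Rras2 had 0.22, Sirt2 0.31 and Bcas1 -0.25. For Rras2 and Sirt2 the groups did not overlap, with higher values after LDL, the only 2 of the 11.

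Other myelin genes split by detection. Of 27, 17 were measured and 9 were well above background on no array. Mog, Mag and Mobp were above background on all 6 arrays, while Opalin, Cldn11, Ugt8a, Fa2h and Mal were above it on none. These 8 names were chosen after detection was seen. The median fold change over the 17 was -0.05 and 0 passed. Pllp, a myelin membrane proteolipid, had 0.58 (limma adjusted p = 0.457) with groups that did not overlap, the small heat shock gene Cryab -0.41 and the membrane glycoprotein gene Gpm6b -0.32. Groups did not overlap for Cryab and Gpm6b either, and over the list they did not for 4 genes lower and 1 higher after LDL.

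Genes that restrain differentiation, such as the ID and HES factors and BMP receptors, had a median of -0.19 over 16, and 0 passed. Bmpr1b had -0.47 (limma adjusted p = 0.385), the Notch target Hes5 -0.46 and Bmpr1a -0.24. The groups of Bmpr1b and Bmpr1a did not overlap, with lower values after LDL, the only 2 of the 16. Leaving out saline array 1 took this median to -0.10, leaving out LDL array 1 to -0.11 and leaving out saline array 2 to -0.29. That of the transcription factors was -0.13 without saline replicate 1. For committed precursor genes it was -0.05 when saline array 1 was left out and -0.04 when LDL array 3 was. For other myelin genes it moved by over 1.5 times without any 1 array but LDL replicate 3, with -0.21 when saline array 2 was left out and -0.03 when saline array 1 was.

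**Figure D4:**
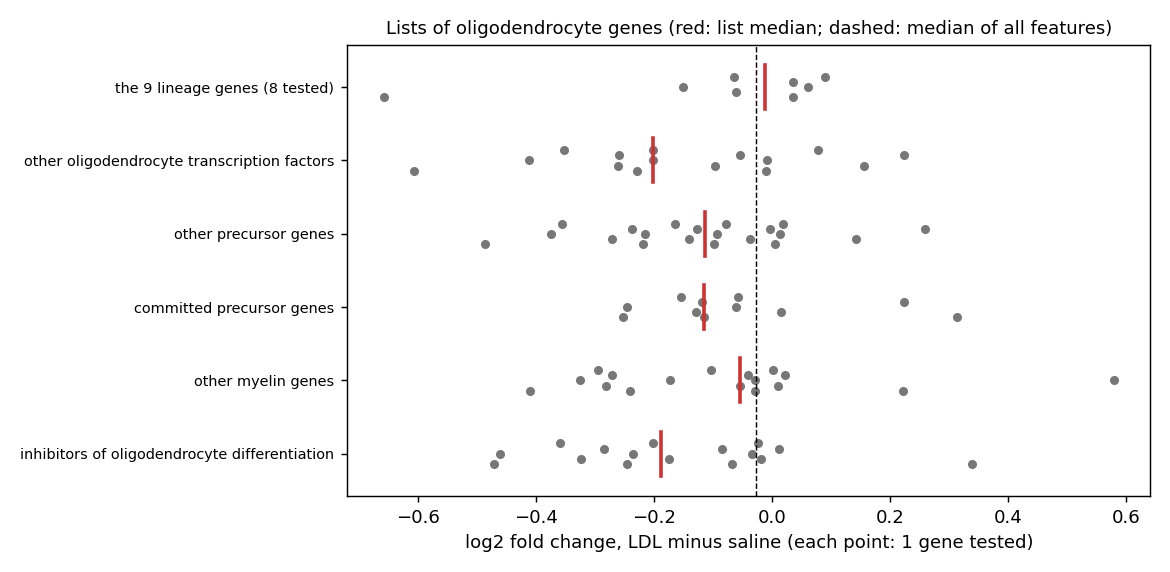
Log2 fold change (LDL minus saline) of each measured gene in the 9 lineage genes and 5 further lists, with the list median in red and the median of all features, -0.03, as a dashed line. Medians of the 5 further lists lie between -0.20 and -0.05, and 0 of the genes shown passed over all features.

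Several of the 9 genes are also expressed by other cells, and markers of these were looked up. Pdgfra and Cspg4 mark fibroblasts and mural cells as well. Of 16 markers of those cells, 9 were well above background on no array, among them Pdgfrb, Rgs5, Kcnj8, Dcn and Lum. Notch3, Acta2, Tagln, Col1a2 and Fbln1 were above it on all 6 arrays, and Col1a1 on 5. Apart from Pdgfrb, Notch3 and Col1a2, these names were chosen after detection was seen. The 6 measured had a summed level of 6.37 to 7.35 with saline and 6.28 to 6.997 with LDL, in units of the array's 75th percentile, and 0 passed. Col1a2 had -0.24 and Notch3 -0.29, the only 2 of the 6 with groups that did not overlap. Sox10 and myelin genes are shared with Schwann cells, of whose 12 markers 8 were measured. Erbb3, Foxd3 and Cdh19 were well above background on none of the 6 arrays. Their summed level was 17.4 to 25.6 with saline and 18.5 to 20.6 with LDL. Egr2, also an immediate early gene, had -0.82 (limma adjusted p = 0.334) and Prx -0.26.

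Markers of the labelled cell type were present. Nes and Sox2 were well above background on all 6 arrays, and the 11 measured precursor markers had a median of -0.10, with 0 passing and Hopx at 0.58. Without saline replicate 2 that median was -0.03, and without LDL replicate 1 it was -0.05. Their summed level was 368.1 to 440.3 with saline and 387.6 to 418.4 with LDL. Dcx was above background on no array and Aif1 on 1. Of 8 neuronal markers measured 0 passed (Calb2 -0.66, Prox1 0.37; summed level 25.3 to 33.3 with saline and 24.8 to 28.1 with LDL), and of 7 microglia markers 0 passed (Tmem119 -0.41; 22.8 to 27.5 and 22.8 to 27.0). Of 11 astrocyte markers 1 passed: Gfap had 1.35 on its brighter probe (limma adjusted p = 0.0225) and 0.15 on another, while the remaining probe was above background on no array. With single arrays left out the fold change ran from 1.26 to 1.45, and the call held without saline replicate 1 but was lost without any other array. It was also lost with the replicate block, with slide row as a block, with no background filter, in slide row 1 alone, and with the mean over probes, where the fold change was 0.75 (limma adjusted p = 0.312, with 0.00933 to 0.771 over all alternatives). Slc1a3, a glutamate transporter, had -0.33. The astrocyte list had a median of -0.21, and of -0.098 without saline replicate 1. Its summed level was 200.7 to 229.6 with saline and 174.9 to 190.9 with LDL, ranges that did not overlap. This was not particular to astrocyte markers. Summed levels were also lower without overlap for other transcription factors of the lineage (52.6 to 59.2 with saline, 49.7 to 50.4 with LDL). The same held for other myelin genes (98.5 to 126.3 and 90.6 to 93.5) and genes that restrain differentiation (52.2 to 54.4 and 46.0 to 49.2). For the remaining lists the ranges overlapped. A summed level follows the brightest genes of its list most. These were Gpm6b for other myelin genes (mean 6.02 with saline, 5.70 with LDL) and Aldoc for astrocyte markers (6.93 and 6.69). Fold changes were positive for 5 of 17 other myelin genes and 3 of 11 astrocyte markers, so the sums do not describe every gene. How often sums over other genes fail to overlap was not computed. How the content of other cell types bears on the lineage genes was not tested, and in such cultures fewer cells of a type and less RNA per cell cannot be told apart.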

How the data were processed

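Per the file headers, the deposited scanner values are intensity values from Agilent Feature Extraction 10.7.3.1, background-subtracted and detrended within each array but not scaled between arrays. The authors also deposited log2 values, aligned between arrays by a method not given in the sources used here; their medians lay between 6.74 and 6.76 and each column correlated best with the scanner values of its own array. The submitters' processing notes list R 3.4.4 and limma 3.34.9.

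Log2 processed signals were set relative to the 75th percentile of each array. Of the spots, 3671 controls were left out, and flagged spots too unless a probe had no other on that array. A probe was tested if at least 50% of its spots were well above background on all 3 arrays of a group (32993 of 55681 probes). The files hold no gene symbols, so 28331 probes were named through RefSeq transcripts of GRCm38.p6, and the brightest tested probe stood for a gene, giving 24225 features. The groups were tested with limma (version 3.58.1, R 4.3.3; two-sided, no covariates, Benjamini-Hochberg adjustment over all features), and the fit was tested on simulated data. Figures used matplotlib 3.10.9. The genes and lists were chosen with earlier results of these data known. Named were the 9 genes, from each oligodendrocyte list those that passed and the 3 with the smallest p, from each cell type list those that passed and the 2 with the smallest p, 7 cell type markers for detection, and the 5 genes of most similar profile (provisional gene names left out). Some genes that this rule names are not reported here. As alternatives, median spot signals were corrected by normexp (offset 50) before quantile normalization, processed signals were scaled by quantiles or medians, and the deposited log2 values were used. Background filters were changed, probes were averaged or kept single, a block was added for replicate number or for slide row, variances were trended and robust, and slide row 1 was fitted alone. Each array was left out in turn. Replicate numbers were not taken as pairs in the main fit, and served as a block in an alternative only. Deviations of same-numbered arrays from their group means correlated at 0.21, -0.04 and 0.18. Those of saline and LDL arrays with unlike numbers correlated at -0.23 to 0.08. With the block the SE was smaller for each measured lineage gene but Cspg4. For Olig1 it was 0.12 against 0.22 in the main fit, and for Pdgfra 0.21 against 0.34.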

Additional observations from a re-analysis of the deposited data

How the results depend on the processing

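None of the 8 measured lineage genes passed in any of the 19 settings, 18 of them planned and 1, leaving out flagged spots throughout, chosen after seeing the data. The median fold change of the 8 stayed within its replicate SD of 0.08, between -0.01 and 0.03, except that leaving out 1 array gave -0.14 to 0.026. Signs turned only with an array left out: without saline replicate 1 Cnp had -0.14 and Mbp -0.30, without LDL replicate 1 Olig1 had 0.0074 and Olig2 0.0086, without saline replicate 2 Olig1 had 0.012, Sox10 -0.092, Nkx2-2 0.0083 and Cspg4 -0.019, and without LDL replicate 3 Nkx2-2 had 0.036. Over arrays left out, Olig1 ran from -0.35 to 0.012, Olig2 from -0.14 to 0.0086, Sox10 from -0.092 to 0.14, Nkx2-2 from -0.16 to 0.036, Cspg4 from -0.019 to 0.076, Cnp from -0.14 to 0.29 and Mbp from -0.30 to 0.29. Pdgfra stayed negative in all 19, from -0.89 to -0.24.

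Over all features, 3 passed as higher and 26 as lower. The count of higher features was 8 after normexp, 5 after quantile normalization alone, 8 under median scaling, 7 in the deposited values and 5 where detection was required on all 6 arrays. It was 16 under trended robust variances, 6 without any flagged spot, and 0 with no filter, with slide row as a block or in slide row 1. Beside these, 34, 26, 22 and 27 were lower under normexp, quantile, median and deposited values in that order. Lower were 14 with slide row as a block and 0 without the filter or in slide row 1. Without single arrays, 0 to 6 were higher and 0 to 23 lower. Fits with an array left out or in slide row 1 held fewer arrays, and the fit without the filter held more features. The cause of these changes in count was not tested. Unadjusted limma p-values under 0.05 numbered 1773 with no filter and 862 in slide row 1, and 1554, 991 and 1375 without saline replicate 3, LDL replicate 2 and LDL replicate 3. Adding the replicate block left 2 features higher and 1 lower, and Pdgfra had an unadjusted p of 0.0261 at the same fold change of -0.66 without passing. Signal close to background limits what can be said of Pdgfra and Mbp, and nothing can be said of Gpr17.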
